A study of Mus musculus with 6 samples.

Results

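The genes described here encode the nuclear subunits of complexes I, III, IV and V of the mitochondrial respiratory chain, together with the Ndufaf assembly factors of complex I. They were chosen by symbol, as the protein-coding genes of the mm10 gene table that start with Ndufa, Ndufb, Ndufc, Ndufs, Ndufv, Uqcr, Cox4i, Cox5, Cox6, Cox7, Cox8 or Atp5. This gave 92 genes of 21887 on chromosomes 1 to 19, X and Y: 41 subunits of complex I, 8 assembly factors, 8 subunits of complex III, 18 of complex IV and 17 of complex V. The grouping follows the symbol: Ndufa4 is counted with complex I, although its protein is known as a subunit of complex IV. Chromatin of cultured mouse colon group 2 innate lymphoid cells (ILC2s) was profiled by CUT&Tag, in which an antibody bound on chromatin directs a transposase to cut the DNA beside it. The cells were sorted from the gut and grown with the cytokines IL-33, IL-25, IL-7 and IL-2, in 3 groups of 2 libraries: Control, FK866, and FK866 plus succinate. All groups carry the same cytokines; the labels state no strain, age, dose or time, and the antibody target is likewise not given in the sources used here. A peak therefore marks only a stretch enriched for an unnamed target. It is also not stated whether the 2 libraries of a group came from separate cultures or animals, so p-values measure the spread between these libraries, which may be technical.

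Complex I takes electrons from NADH, complex III passes them from ubiquinol to cytochrome c, and complex IV hands them to oxygen; the proton gradient that results drives ATP synthesis by complex V. FK866 inhibits NAMPT, the enzyme of NAD salvage, and so acts on the supply of the substrate of complex I. Succinate is oxidised by complex II, which feeds ubiquinone without complex I, so the comparisons ask whether chromatin at the genes of the chain differed when NAD salvage was blocked and when succinate was then supplied. ILC2s are tissue cells that make type 2 cytokines, and the genes described here are expressed in most cell types, except for a few isoforms kept for muscle, testis, lung or low oxygen.

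The libraries held between 40320 and 56361 peaks, which covered between 39.0 and 43.8 Mb. No read counts were used, and a relative depth was inferred from the deposited fold values as fragments of background per position: 1.85 and 2.14 in Control, 2.11 and 1.60 in FK866, and 1.74 and 1.25 in FK866 plus succinate. All 10 ILC2 markers examined (such as Gata3, Rora and Il1rl1) had a peak in each of the 6 libraries, as did 2 of 5 markers of ILC1 and NK cells, 1 of 4 of ILC3s, 2 of 4 of T cells, 2 of 3 of B cells, 0 of 3 of myeloid cells and 3 of 4 of epithelium. Covered length summed over the ILC2 markers ran from 76.0 to 82.1 kb in Control, 73.6 to 77.5 kb in FK866 and 74.9 to 75.3 kb in FK866 plus succinate. Both succinate libraries lay below both Control libraries there, and the FK866 libraries overlapped with both groups. Over the B cell markers the covered length was 3.59 to 5.78 kb, 2.90 to 2.96 kb and 3.13 to 3.17 kb in the same order, and over the myeloid markers 0.537 to 0.618 kb, 0 to 0.525 kb and 0.765 to 1.11 kb, with no overlap between groups in either list. Over those of ILC1 and NK cells it was 4.97 to 5.63 kb, 4.74 to 5.12 kb and 4.40 to 5.12 kb, and over those of ILC3s 0.464 to 1.62 kb, 0.833 to 0.892 kb and 0.650 to 1.65 kb. Over T cell markers it was 4.23 to 4.46 kb, 4.54 to 5.65 kb and 4.30 to 5.60 kb, with both FK866 libraries above both Control libraries. Over those of epithelium it was 3.61 to 7.06 kb, 3.33 to 4.96 kb and 4.20 to 4.22 kb. The part of these cells in the results was not tested. Ncr1, Klrb1c, Ifng, Il17a, Il23r, Cd8a and Ms4a1 had no peak in any library.

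Promoters of 5 members show the sequence on which the peaks lie. Each line is the 250 bases before the annotated start on the strand of the gene, from RefSeq (GRCm38.p6, whose chromosome coordinates are those of mm10). Capitals mark matches, on either strand, to 4 short motifs of factors known at nuclear genes of respiration: NRF1 (GCGCATG), ETS factors such as GABPA (CCGGAAG), YY1 (ATGGCGG) and the GC box of SP1 (GGGCGG). Cox7c, Atp5o and Ndufab1 are shown because they had the 3 smallest p-values of the FK866 plus succinate against FK866 comparison among members in the promoter table. Cox6a1 and Ndufb6 were chosen after their values were seen, as the members whose promoter holds an NRF1 match, an ETS match and a GC box.
Cox7c (chr13:86046796-86047045, minus strand): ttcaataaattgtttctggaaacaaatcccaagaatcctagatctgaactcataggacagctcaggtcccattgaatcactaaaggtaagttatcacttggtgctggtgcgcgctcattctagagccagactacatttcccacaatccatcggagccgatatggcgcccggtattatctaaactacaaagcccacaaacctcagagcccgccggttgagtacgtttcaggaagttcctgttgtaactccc
Atp5o (chr16:91931631-91931880, minus strand): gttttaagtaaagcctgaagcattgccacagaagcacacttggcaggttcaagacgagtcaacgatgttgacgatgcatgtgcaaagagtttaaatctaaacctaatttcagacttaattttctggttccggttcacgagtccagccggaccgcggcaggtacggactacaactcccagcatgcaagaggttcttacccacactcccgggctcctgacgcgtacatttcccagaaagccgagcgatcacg
Ndufab1 (chr7:122101849-122102098, minus strand): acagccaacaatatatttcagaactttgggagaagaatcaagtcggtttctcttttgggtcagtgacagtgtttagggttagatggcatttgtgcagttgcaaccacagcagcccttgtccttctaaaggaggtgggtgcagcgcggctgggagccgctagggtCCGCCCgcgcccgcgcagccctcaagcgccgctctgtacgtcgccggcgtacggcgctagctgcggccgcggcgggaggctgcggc
Cox6a1 (chr5:115348959-115349208, minus strand): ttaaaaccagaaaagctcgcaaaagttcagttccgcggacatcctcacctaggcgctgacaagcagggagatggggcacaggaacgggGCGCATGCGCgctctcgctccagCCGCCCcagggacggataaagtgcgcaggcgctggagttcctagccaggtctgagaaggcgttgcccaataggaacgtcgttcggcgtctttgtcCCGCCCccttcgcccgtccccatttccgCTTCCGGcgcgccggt
Ndufb6 (chr4:40279422-40279671, minus strand): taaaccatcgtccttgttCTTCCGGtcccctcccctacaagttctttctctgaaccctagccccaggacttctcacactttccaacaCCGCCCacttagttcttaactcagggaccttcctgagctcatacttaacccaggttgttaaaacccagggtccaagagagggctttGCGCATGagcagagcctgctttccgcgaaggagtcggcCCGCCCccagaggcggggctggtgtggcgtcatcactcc
The stretch before Cox7c and that before Atp5o hold none of the 4 motifs, and that before Ndufab1 holds 1 GC box, which starts 86 bases before the annotated start. Before Cox6a1 an NRF1 match lies on either strand, in overlap, from 162 and 159 bases before the start. An ETS match follows at 16 bases and GC boxes lie at 139 and 44 bases. Before Ndufb6 the ETS match lies at 232 bases, the NRF1 match at 77 bases and the GC boxes at 163 and 39 bases.

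Almost every subunit gene carried a peak in every library. Of the 92 members, 86 (93.5%) had a peak within the gene span plus 2 kb in all 6 libraries, against 64.1% of all protein-coding genes. By complex these were 39 of 41 genes of complex I, 8 of 8 assembly factors, 8 of 8 genes of complex III, 14 of 18 of complex IV and 17 of 17 of complex V. The pattern was also simple: 36 members (39.1%) had exactly 1 peak in each library, against 13.0% of all genes. That 13.0% is 2852 of 21887 genes, of which 15942 had a peak in any library, as did 88 of the 92 members. For the 75 members in the promoter table, the annotated start lay inside a peak in all 6 libraries at 72 (96%), against 54.2% of all genes in that table. The exceptions were Cox7b2, Cox8b and Ndufb4b. Ranked by deposited −log10 p within its own library, the strongest peak of a member stood at a median percentile of 93.9, against 85.2 for all genes with a peak.

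The genes without a peak were gene copies and isoforms known from other tissues. Ndufb4b and Ndufb4c, copies of the membrane-arm subunit gene Ndufb4, and Cox7b2 and Cox8c, testis isoforms of complex IV subunits, had no peak in any library. Cox6a2, the heart and muscle isoform of Cox6a, had 278 bp covered in Control 2, 1000 bp in FK866 plus succinate 2 and 0 in the other 4 libraries. Cox8b, a heart and muscle isoform, had 498 and 652 bp in Control, 551 and 343 bp in FK866, and 413 and 0 bp in FK866 plus succinate. In the libraries that covered them these genes had only weak peaks, with a mean percentile of 9.28 for Cox6a2 and 21.1 for Cox8b, counting libraries without a peak as 0. Their ubiquitous counterparts Cox6a1 and Cox8a were covered in every library.

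Other restricted isoforms were covered throughout. Cox4i2, the isoform of Cox4 known from lung and low oxygen, had 2715 and 1117 bp in Control, 985 and 992 bp in FK866, and 1585 and 647 bp in FK866 plus succinate. These came from scattered weak peaks, and Control 1 stood apart from the other 5 libraries. Cox6b2, a testis isoform, had between 1248 bp (Control 2) and 1536 bp (FK866 plus succinate 1), Cox7a1, the muscle isoform of Cox7a, between 1249 bp (FK866 plus succinate 2) and 1777 bp (Control 1), and Ndufa4l2, induced by low oxygen, between 2911 bp (FK866 2) and 3671 bp (FK866 plus succinate 1). By strength these 4 isoforms stood lowest among the 86 members covered in all libraries, with mean percentiles of 45.6 for Cox4i2, 72.4 for Cox7a1, 73.3 for Cox6b2 and 76.1 for Ndufa4l2. The lead site of Cox6b2, the base in its window covered most strongly over the 6 libraries, lies within 2 kb of an end of Fam71e2, so its peak cannot be assigned to 1 gene. The same held for 40 of the 88 members with a peak.

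**Figure D1:**
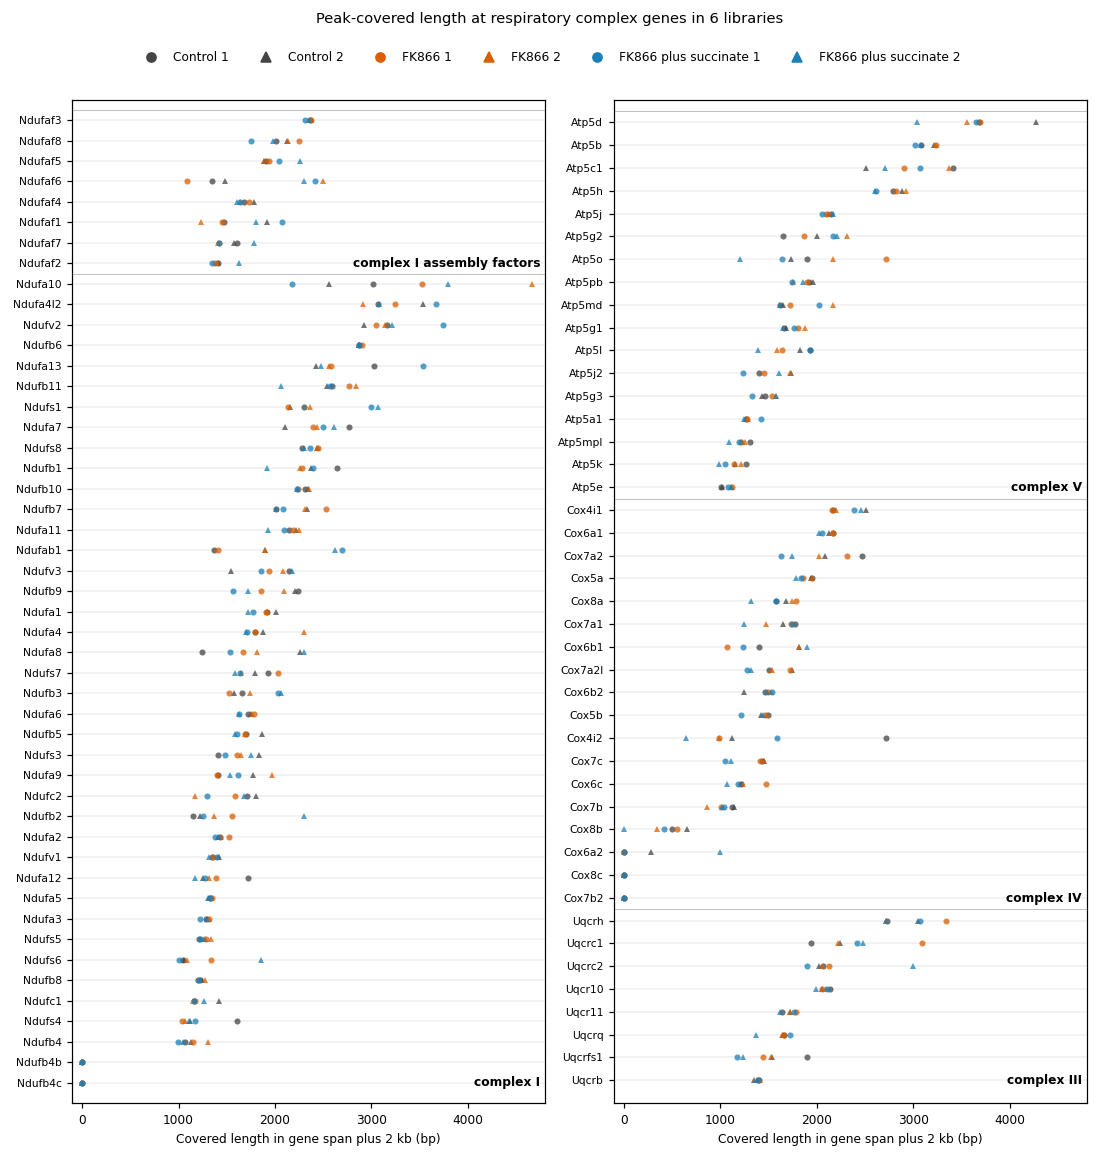
Covered length (bp, x axis) of single members (y axis, by complex and ordered by mean) in 6 libraries; circles are replicate 1 and triangles replicate 2, in grey for Control, orange for FK866 and blue for FK866 plus succinate. Most members lie between 1000 and 4000 bp in every library, and Ndufb4b, Ndufb4c, Cox7b2 and Cox8c lie at 0.

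The core catalytic subunits of complex I named here were covered in every library. Ndufv1, which binds NADH and the flavin, varied little, with 1346 and 1420 bp in Control, 1353 and 1404 bp in FK866, and 1401 and 1316 bp in FK866 plus succinate. Ndufs8, an iron-sulphur subunit, had 2279 and 2431 bp, 2442 and 2443 bp, and 2364 and 2301 bp in the same order. Ndufs3 had 1408 and 1829 bp, 1603 and 1644 bp, and 1482 and 1749 bp. The groups overlapped at Ndufv1 and Ndufs3, while at Ndufs8 both FK866 libraries lay above the other 4 by a small margin. Ndufs7, which carries the last iron-sulphur cluster before ubiquinone, had 1932 and 1796 bp in Control, 2031 and 1651 bp in FK866, and 1632 and 1582 bp in FK866 plus succinate. Both succinate libraries lay below the other 4 there. Ndufv2, an iron-sulphur subunit, had 3157 and 2926 bp, 3045 and 3140 bp, and 3741 and 3209 bp, with both succinate libraries above the other 4. Part of this length lay in a peak beyond the 3′ end, near an end of Ankrd12. The peak at the annotated start was 1632, 1745, 1671 and 1781 bp wide without succinate and 1604 and 1491 bp with it. A region inside the gene had 756 and 566 bp covered with succinate and none in the other libraries. Ndufs1 is given with the comparisons.

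The longest covered lengths belonged to Atp5d, the delta subunit of the ATP synthase stalk (mean over 6 libraries 3650 bp), Ndufa10 (3290 bp) and Ndufa4l2 (3249 bp), and the shortest above 0 to Cox6a2 (213.0 bp), Cox8b (409.5 bp) and Cox7b (1032 bp). Atp5d had 3679 and 4272 bp in Control, 3692 and 3555 bp in FK866, and 3655 and 3044 bp in FK866 plus succinate. Covered length follows gene span and neighbouring genes as well as the peak at the start, and is not a level of expression.

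No member passed the test in any comparison. The test was limma on log2(covered bp + 250) over 15362 genes with a peak in at least 2 libraries, 88 members among them, with Benjamini-Hochberg adjustment. FK866 against Control, FK866 plus succinate against FK866, and FK866 plus succinate against Control each called 0 genes, members included. At an unadjusted p under 0.05 they had 817 genes (5.32%), 1359 genes (8.85%) and 1387 genes (9.03%), and 1, 7 and 7 members. The 3 comparisons share libraries in pairs, so their values are given side by side and not as independent results. The directions below are those of the 4 libraries of each comparison.

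When FK866 was set against Control, the median difference of members was small, at 0.01 on the log2 scale against −0.03 for all genes tested. Above 0 lay 53 members and below it 35, against 6478 and 8836 of the 15362 genes tested. Both FK866 libraries lay above both Control libraries at 23 of the 88 members (26.1%, background 12.8%). They lay below at 13 (14.8%, background 19.9%).

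The members named in that comparison for their small p-values were Atp5o (log2 difference 0.38 ± 0.18), Cox7b (−0.22 ± 0.11), Ndufaf1 (−0.28 ± 0.16), Ndufa10 (0.51 ± 0.29) and Uqcrc1 (0.30 ± 0.17; SE, limma adjusted p = 1 for each). With 1 library left out in turn, these differences ran from 0.23 to 0.52 at Atp5o, −0.31 to −0.14 at Cox7b, −0.45 to −0.11 at Ndufaf1, 0.32 to 0.70 at Ndufa10 and 0.08 to 0.52 at Uqcrc1. Cox7b, a small subunit of complex IV, had 1120 and 1144 bp in Control, 1007 and 864 bp in FK866, and 1035 and 1022 bp in FK866 plus succinate, always in a single peak. Ndufa10, an accessory subunit of complex I, had 3018 and 2559 bp, 3526 and 4661 bp, and 2178 and 3796 bp. Uqcrc1, a core protein of complex III, had 1942 and 2245 bp, 3092 and 2225 bp, and 2415 and 2475 bp. At Uqcrc1 the groups overlapped, since FK866 2 lay below Control 2. Within a 4-kb window around its lead site the difference at Ndufa10 was −0.01.

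Between FK866 plus succinate and FK866, covered length was mostly shorter with succinate. Both succinate libraries lay below both FK866 libraries at 39 of the 88 members, or 44.3% (background 21.8%), and above them at 10 (background 17.9%). The median difference of members was −0.06 (log2) against −0.01 for all genes tested, and 59 members lay below 0. In complex V 14 of 17 genes lay below 0, in complex III 7 of 8, in complex I 25 of 39 and in complex IV 10 of 16. Among the assembly factors 3 of 8 lay below 0 and 5 above. Both succinate libraries lay below both FK866 libraries at 3 of these 8 (background 21.8%) and above at 2 (background 17.9%). Of the 15362 genes tested, 7905 lay below 0. Against Control, both succinate libraries lay below both Control libraries at 30 members (34.1%, background 24.5%) and above at 11 (background 13.4%), and the median was −0.02 against −0.03 for all genes. After quantile normalization of the libraries, that 30 became 10. The share over all genes after that normalization is not given here, so the 10 stands without a background.

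Summed by complex, the order of the groups differed. Complex IV had 24.96 and 24.08 kb in Control, 23.2 and 22.8 kb in FK866, and 21.8 and 21.6 kb in FK866 plus succinate, with no overlap between any 2 groups. Its genes lay without overlap below Control at 9 of 16 in the succinate group (background 24.5%) and above at 1 (background 13.4%). Complex V had 33.5 and 33.7 kb, 34.1 and 35.3 kb, and 33.0 and 31.2 kb, and was longest in FK866. Complex I had 73.4 and 74.1 kb, 74.9 and 77.0 kb, and 74.0 and 76.6 kb, so both FK866 libraries lay above both Control libraries and the succinate libraries overlapped with both groups. Complex III had 15.5 and 15.6 kb, 16.9 and 15.4 kb, and 15.5 and 15.8 kb, with overlap between each pair of groups. The assembly factors had 13.8 and 14.5 kb, 13.6 and 14.6 kb, and 15.0 and 15.7 kb, highest in both succinate libraries. Without Cox4i2, whose 2715 bp in Control 1 stood apart, complex IV had 22.2 and 23.0 kb in Control, 22.2 and 21.8 kb in FK866, and 20.2 and 20.9 kb in FK866 plus succinate; the succinate libraries still lay below the other 4, while Control 1 and FK866 1 were 22.246 and 22.204 kb and hardly differed.

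**Figure D2:**
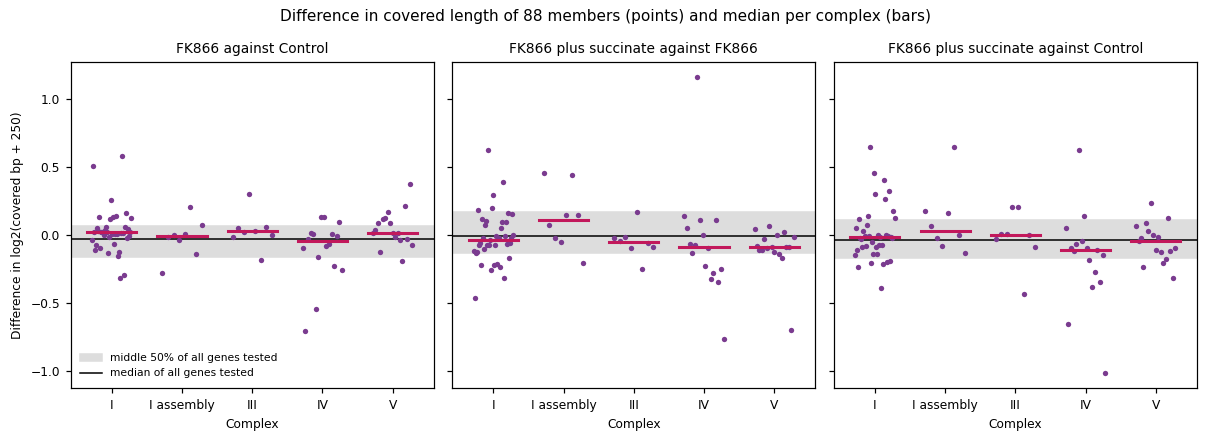
Difference in log2(covered bp + 250) (y axis) of the 88 members with a peak in at least 2 libraries, by complex (x axis), in 3 comparisons; points are genes, red bars medians per complex, the black line the median and the grey band the middle 50% of all 15362 genes tested. In FK866 plus succinate against FK866 the median of members is −0.06 and that of all genes −0.01.

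Covered length joins 2 quantities that differed in opposite directions with succinate, the peak that holds the lead site and the other peaks of the window. The lead peaks of all members summed to 136.3 and 138.2 kb in Control, 138.0 and 139.0 kb in FK866, and 131.4 and 129.8 kb in FK866 plus succinate. Both succinate libraries lay below the other 4, as they also did over all genes tested. There the sums were 23209.3 and 23255.5 kb, 23087.6 and 23033.3 kb, and 22005 and 21799.6 kb in the same order. Other peaks of members numbered 41 and 37 in Control, 36 and 42 in FK866, and 53 and 55 in FK866 plus succinate. They covered 24.9 and 23.9 kb, 24.8 and 26.1 kb, and 27.9 and 31.1 kb. Both succinate libraries lay above the other 4 in number and in length.

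The narrower lead peak was widespread among members and also present genome-wide. Of the 85 members with a lead peak in all 6 libraries, 56 had it narrower in both succinate libraries than in both FK866 libraries (65.9%, background 39.6%) and 3 had it wider (background 6.99%), namely Ndufs4, Atp5g2 and Cox7b. The median difference in width was −93.5 bp for members and −64 bp for all 13510 genes with such a peak. Against Control, 40 were narrower (47.1%, background 38.9%) and 6 wider (background 7.11%), with medians of −80.5 and −61.5 bp. Between FK866 and Control, 9 were narrower (background 15.8%) and 24 wider (background 16.8%), with medians of 17 and 1 bp. By complex, the lead peak was narrower in both succinate libraries than in both FK866 libraries at 25 of 39 genes of complex I, 6 of 8 assembly factors, 3 of 8 genes of complex III, 10 of 13 of complex IV and 12 of 17 of complex V.

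Depth differed between the libraries. The 2 shallowest libraries by inferred background were FK866 plus succinate 2 (1.25) and FK866 2 (1.60). Their lead peaks summed over members to 129.8 and 139.0 kb, the shortest and the longest of all libraries. Over all genes tested they summed to 21799.6 and 23033.3 kb, the shortest of all libraries and the shortest of those without succinate. FK866 plus succinate 1 had a background of 1.74, with 131.4 kb at members and 22005 kb over all genes tested. The part that depth plays in peak width was not tested. Over all genes tested the number of other peaks overlapped between groups: 1.78 and 1.37 per gene in Control, 1.34 and 1.49 in FK866, and 1.55 and 2.03 in FK866 plus succinate. Among members they were 0.446 and 0.402, 0.391 and 0.457, and 0.576 and 0.598 per gene. Control 1 had more peaks in all (50489) than FK866 plus succinate 1 (45446) and fewer other peaks at members. FK866 plus succinate 2 had the most peaks in all (56361) and the most other peaks at members (55). The part of list length in these numbers was not tested.

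**Figure D3:**
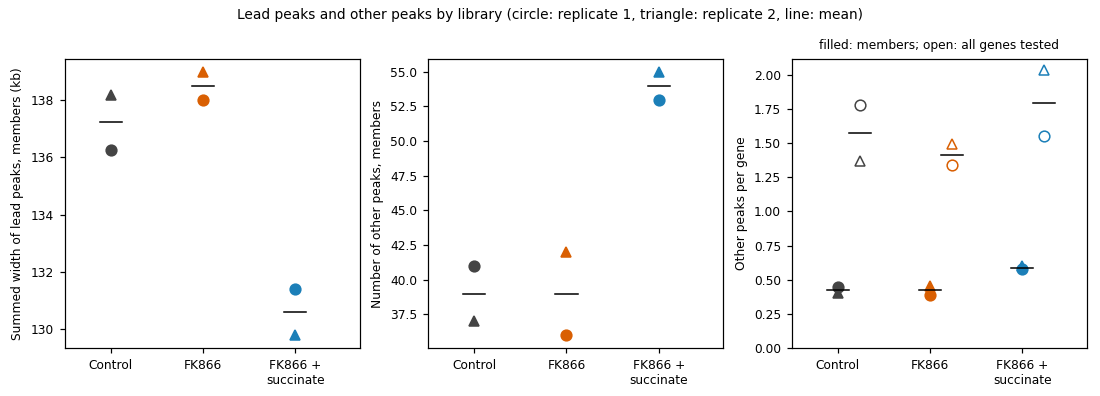
Lead peaks and other peaks in the windows of the 92 members by group (x axis) and library (circle, replicate 1; triangle, replicate 2; line, mean): summed width of lead peaks in kb (left, axis not from 0), number of other peaks (middle, axis not from 0) and other peaks per gene for members (filled) and all genes tested (open; right). The succinate libraries are lowest on the left, at 131.4 and 129.8 kb, and highest in the middle, at 53 and 55 peaks.

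Both edges of the peak at the start were compared. At the 72 members whose start was inside a peak in all libraries, the peak reached a median of 905 and 949 bp downstream of the start in Control, 937 and 928 bp in FK866, and 869 and 864 bp in FK866 plus succinate. Upstream it reached 569 and 574.5 bp, 599.5 and 574 bp, and 590.5 and 591 bp. The downstream medians of both succinate libraries lay below the other 4. Their upstream medians lay above those of both Control libraries and between those of the FK866 libraries. Taken gene by gene, the median upstream difference between FK866 plus succinate and Control was −6.25 bp, against −6.5 bp for all genes. The downstream reach was shorter in both succinate libraries than in both FK866 libraries at 38 of 72 members (52.8%, background 39%) and longer at 3 (background 5.33%). The median difference was −51.8 bp, against −44.5 bp for all 9472 genes with such a peak. The upstream reach was shorter in both succinate libraries than in both FK866 libraries at 21 of the 72 (29.2%, background 23.2%) and longer at 3 (background 10.4%), with a median difference of −9 bp against −9.5 bp for all genes. Against Control the downstream reach was shorter at 33 (background 39.5%) and longer at 2 (background 5.38%), and between FK866 and Control shorter at 10 (background 14%) and longer at 15 (background 13.4%).

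Cox7c, a small subunit of complex IV, gave the clearest case among the members with the smallest p. It had a single peak in every library, 1433 and 1450 bp wide in Control, 1414 and 1458 bp in FK866, and 1053 and 1110 bp in FK866 plus succinate. The 4 libraries without succinate lay close together, and the gap between them and the succinate libraries was several times their spread. The log2 difference was −0.34 ± 0.08 (SE) both from FK866 (limma adjusted p = 0.429) and, at −0.35 ± 0.08, from Control (limma adjusted p = 0.466). The peak reached 1299, 1299, 1307 and 1307 bp downstream of the start in the libraries without succinate and 866 and 918 bp in those with it. Upstream it reached 134, 151, 107 and 151 bp without succinate and 187 and 192 bp with it, so the edge on the promoter side lay further out. It stayed among the strong peaks of every list, between the 89.2 and 97.0 percentile.

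Atp5h, subunit d of the peripheral stalk of the ATP synthase, showed the same form with very little spread and was singled out after its values were seen. Its start-site peak reached 910 and 899 bp downstream in Control, 891 and 894 bp in FK866, and 619 and 607 bp in FK866 plus succinate. Upstream it reached 1348 and 1340 bp, 1340 and 1348 bp, and 1322 and 1348 bp, toward the neighbouring gene Kctd2. Over the whole gene window the log2 difference from FK866 was −0.13 ± 0.07 (SE; limma adjusted p = 0.681). In a 2-kb window centred on the annotated start, an alternative added after the data were seen, it was −0.20 (limma adjusted p = 0.00821), and from Control −0.21 (limma adjusted p = 0.00691). That window called 38 of 11048 genes (0.344%) against FK866 and 25 (0.226%) against Control, and Atp5h was the sole member among them. Over the 16 settings run, its adjusted p ranged from 0.00821 to 0.912 against FK866 and from 0.00691 to 0.890 against Control, and it passed in 1 setting of each.

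Uqcrfs1, the Rieske iron-sulphur protein of complex III, had 1903 and 1537 bp covered in Control, 1442 and 1522 bp in FK866, and 1172 and 1237 bp in FK866 plus succinate, with a log2 difference from Control of −0.43 ± 0.12 (SE; limma adjusted p = 0.483). In Control 1 a separate weak peak held 380 bp of the 1903 bp, and the other libraries had the lead peak only. The lead peak of Uqcrfs1 was 1523 and 1537 bp wide in Control. This lead peak reached 1214, 1237, 1087 and 1199 bp downstream without succinate and 866 and 941 bp with it. Ndufb9, a membrane-arm subunit of complex I, had 2235 and 2212 bp, 1856 and 2096 bp, and 1566 and 1715 bp, with −0.39 ± 0.10 from Control (SE; limma adjusted p = 0.466). Its lead peak, which lies near an end of Tatdn1, was 1842, 1933, 1856 and 2096 bp wide without succinate and 1566 and 1715 bp with it. Cox7a2, the ubiquitous Cox7a isoform, named after its values were seen, had 2474 and 2084 bp, 2314 and 2022 bp, and 1631 and 1741 bp, with a log2 difference of −0.32 from FK866 (limma adjusted p = 0.556). At all 3 genes both succinate libraries lay below the other 4.

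Atp5o, the subunit that joins the peripheral stalk to the catalytic head of the ATP synthase, had 1902 and 1737 bp in Control, 2721 and 2173 bp in FK866, and 1644 and 1205 bp in FK866 plus succinate. The FK866 libraries were the highest and the succinate libraries the lowest, with a log2 difference of −0.69 ± 0.18 between them (SE; limma adjusted p = 0.436). Most of this came from weak peaks beyond the 3′ end of the gene, within the 2 kb added to its span. In FK866 plus succinate 1 such a peak crossed the 3′ end. The lead peak was 1262, 1284, 1316 and 1312 bp wide without succinate and 1135 and 1205 bp with it. It reached 480, 480, 480 and 492 bp upstream without succinate and 336 and 429 bp with it. Downstream it reached 782 and 804 bp in Control, 836 and 820 bp in FK866, and 799 and 776 bp in FK866 plus succinate. With the window cut to the gene span, the difference from FK866 was 0.10.

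At Uqcrb and Ndufb6, named after their values were seen, the width of the lead peak differed little between libraries. Uqcrb, a small subunit of complex III whose lead site is shared with Gm10767 and Mterf3, had a single peak of 1407 and 1350 bp in Control, 1389 and 1415 bp in FK866, and 1387 and 1385 bp in FK866 plus succinate. Both succinate libraries lay below both FK866 libraries by a few bases, within the Control range. Ndufb6, whose promoter is printed above, had a lead peak of 1345 and 1345 bp, 1373 and 1365 bp, and 1362 and 1347 bp, and a second peak that covered at least 1506 bp of the window in each library. Atp5b, the catalytic beta subunit of the ATP synthase, was named in the same way and varied more. Its lead peak was 1797 and 1935 bp in Control, 1956 and 1810 bp in FK866, and 1763 and 1777 bp in FK866 plus succinate. The succinate libraries were lowest, by a small margin from the lowest of the others.

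Larger differences lay at Cox7a2l, Cox8a and Ndufb11, chosen in the same way, and none passed limma's test of covered length; the adjusted p of FK866 plus succinate against FK866 was 0.571, 0.599 and 0.613. Cox7a2l, which takes part in joining complexes III and IV into supercomplexes, had a single peak of 1504 and 1741 bp in Control, 1719 and 1538 bp in FK866, and 1278 and 1324 bp in FK866 plus succinate. Both succinate libraries lay below the other 4. Cox8a, the ubiquitous Cox8 isoform, had 1579 and 1681 bp, 1782 and 1741 bp, and 1578 and 1321 bp, and the FK866 libraries were highest. Ndufb11, a membrane-arm subunit of complex I on the X chromosome, had 2589 and 2535 bp, 2762 and 2839 bp, and 2575 and 2057 bp, and here FK866 plus succinate 1 lay within the Control range. One of the 3 members with a wider lead peak in both succinate libraries than in both FK866 libraries was Atp5g2, which encodes the c subunit of the proton rotor: its lead peak was 1276 and 2005 bp in Control, 1206 and 1206 bp in FK866, and 2174 and 2206 bp in FK866 plus succinate. In Control 1 and both FK866 libraries the stretch was listed as a narrower lead peak with a separate peak upstream of it, and in the other 3 libraries as a single wide peak, so its covered length in the window overlapped between FK866 (1870 and 2312 bp) and FK866 plus succinate (2174 and 2206 bp).

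**Figure D4:**
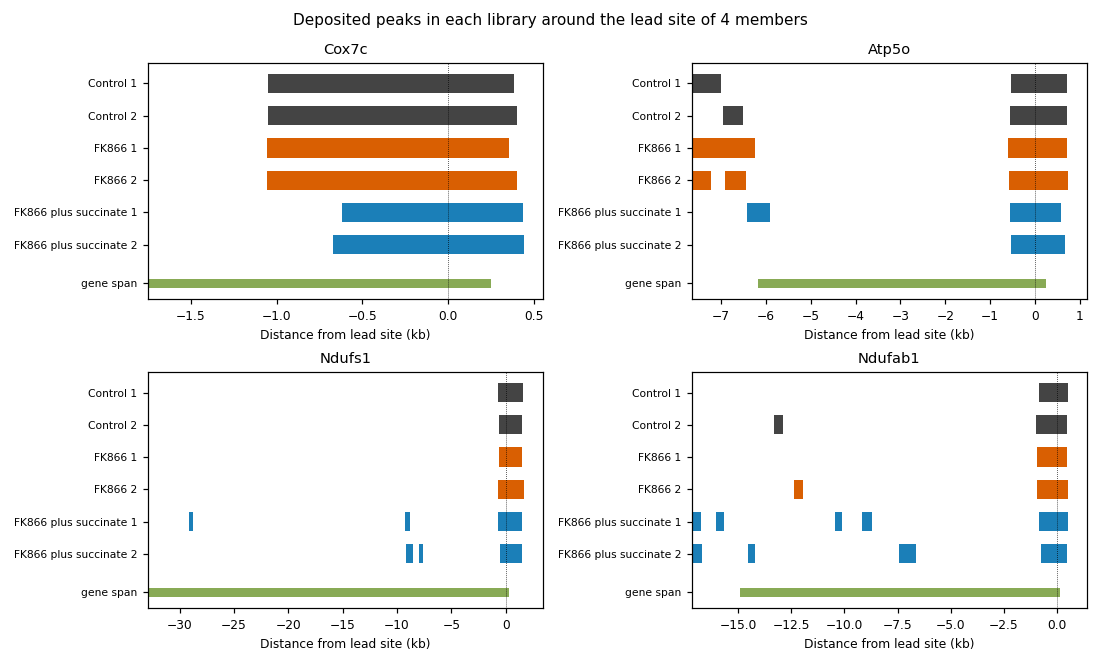
Deposited peaks (bars) of the 6 libraries (rows) at Cox7c, Atp5o, Ndufs1 and Ndufab1, by distance from the lead site in kb in genome direction (x axis). The green bar is the gene span, and only peaks that overlap the span plus 2 kb are drawn. At Cox7c the peak is 1053 and 1110 bp wide with succinate and at least 1414 bp wide in the other libraries; at Ndufs1 and Ndufab1 the succinate libraries have additional short peaks.

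Some members with longer coverage under succinate had more peaks in their window there, such as Ndufs1, Ndufab1 and Ndufb3, while Cox7b and Ndufs4 had 1 peak in each FK866 and succinate library. Ndufs1, the largest iron-sulphur subunit of complex I, had 2301 and 2152 bp in Control, 2135 and 2365 bp in FK866, and 2993 and 3065 bp in FK866 plus succinate, with a log2 difference of 0.39 ± 0.09 from FK866 (SE; limma adjusted p = 0.418) and 0.41 ± 0.09 from Control (limma adjusted p = 0.443). Its lead peak, shared with Eef1b2, was 2301, 2152, 2135 and 2365 bp wide without succinate and 2196 and 2078 bp with it. Both succinate libraries had 2 further peaks inside the gene, and the others had none. The region they share, chr1:63167237-63167949, held peaks with a deposited −log10 p of 3.35 and 2.74, above the lowest peaks of the lists and with deposited adjusted p-values over 0.05.

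Ndufab1, the mitochondrial acyl carrier protein and a subunit of complex I, had 1366 and 1893 bp in Control, 1412 and 1893 bp in FK866, and 2698 and 2621 bp in FK866 plus succinate, with a log2 difference of 0.62 ± 0.19 from FK866 (SE; limma adjusted p = 0.488). Besides its lead peak there were 0, 1, 0 and 1 other peaks without succinate and 4 and 3 with it. Its lead peak was 1366, 1484, 1412, 1455, 1374 and 1242 bp wide in the order of the groups. Ndufb3, of the membrane arm, had 1656 and 1576 bp, 1522 and 1738 bp, and 2036 and 2057 bp (log2 difference 0.29 ± 0.09), and the assembly factor Ndufaf1 had 1467 and 1917 bp, 1448 and 1235 bp, and 2070 and 1801 bp (0.46 ± 0.16). Neither passed (SE; limma adjusted p = 0.498 and 0.525). The second peak of Ndufb3 lay at different places in the 2 succinate libraries. In a 4-kb window around the lead site, the differences from FK866 were −0.07 at Ndufs1, −0.11 at Ndufab1 and −0.04 at Ndufaf1.

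No member had peaks in both libraries of one group and in neither of the other. Among all genes this was so, lost and gained, at 0.525% and 0.114% in FK866 against Control, 0.315% and 0.658% in FK866 plus succinate against FK866, and 0.512% and 0.334% in FK866 plus succinate against Control. Differences in presence at members therefore concern single regions. The peaks of the 6 lists merged into 205 regions in the windows of members, and 47.3% of these were covered in each of the 6 libraries, against 21.7% of 101435 regions genome-wide. Between FK866 plus succinate and FK866, 8 regions had a peak in both succinate libraries and neither FK866 library (background 2.76%), and 2 the reverse (background 1.68%). The 8 lay at Ndufs1, Ndufv3, Ndufv2, Ndufa8, Ndufaf1, Ndufab1, Ndufa13 and Cox4i1, and those at Ndufa8, Ndufa13 and Cox4i1 also had a peak in 1 Control library. The 2 lay at Ndufv3 and Ndufa8. Between FK866 and Control, 5 were gained (background 1.4%), among them those at Ndufa10, Ndufv3, Atp5c1 and Ndufa8, and 3 lost (background 2.04%), among them those at Cox4i2 and Atp5l. Between FK866 plus succinate and Control, 6 were gained (background 2.44%) and 3 lost (background 2.06%).

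The share of promoters with an NRF1 match was larger among members than among other covered promoters. Over 300 bases, from 250 before to 50 after the start, 14 of 75 member genes had NRF1 (18.7%), against 5.40% of 17492 genes in the table and 8.35% of the 9472 whose start lay in a peak in all libraries. YY1 was at 12 (16.0%, against 6.05% and 10.02%) and ETS at 17 (22.7%, against 12.9% and 21.7%). The GC box was at 33 (44.0%, against 49.2% and 72.7%), below the share at covered starts. NRF1, ETS or YY1 stood at 36 members (48.0%, against 21.4% and 34.8%). A gene with several starts counted where any held the motif, an NRF1 match on both strands counted once, and no motif contains another, although YY1 and the GC box both end in GGCGG. YY1 matches lay at 8 of 35 genes of complex I, 2 of 7 assembly factors, 2 of 15 genes of complex V and 0 of the 18 promoters of complexes III and IV. These shares describe letters, show no binding and were not tested.

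**Figure D5:**
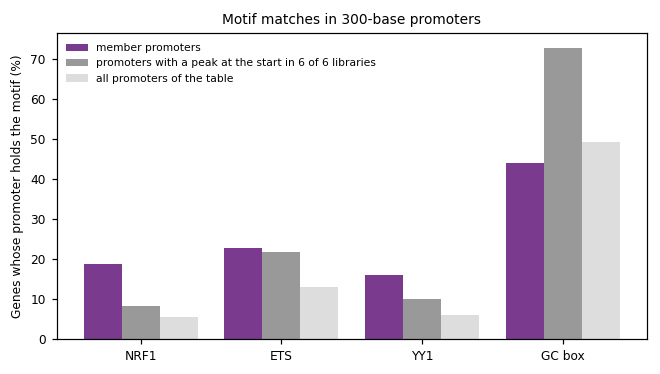
Share of genes (%, y axis) whose 300-base promoter holds a match to each of 4 motifs (x axis) among 75 members, 9472 genes with a peak at the start in 6 of 6 libraries, and 17492 genes of the promoter table. NRF1 stands at 18.7% of members, and the GC box at 44.0% of members against 72.7% of covered starts.

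Members were also split by motif. In FK866 plus succinate against FK866 the median log2 difference was −0.05 at 14 members with NRF1 and −0.06 at 59 without, −0.06 at 17 with ETS and −0.07 at 56 without, −0.05 at 12 with YY1 and −0.06 at 61 without, and −0.02 at 32 with a GC box and −0.07 at 41 without. Where the lead site was shared with another gene, the median was −0.02 at 40 such members and −0.08 at the other 48, and both succinate libraries lay below both FK866 libraries at 16 and 23 of them (background 21.8%) and above at 6 and 4 (background 17.9%). These splits were not tested.

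The rest of the chain was also covered throughout. A list of 45 genes that the symbol rule leaves out, chosen by role (complex II subunits such as Sdha, cytochrome c and Cyc1, electron-transfer flavoproteins and assembly factors such as Surf1 and Sco1), had a peak in every library at all 45, and 0 passed limma in any comparison at an adjusted p under 0.05. Between FK866 plus succinate and FK866, 14 lay without overlap below (31.1%, background 21.8%) and 8 above (17.8%, background 17.9%), with a median of −0.05 against −0.01 for all genes tested.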

How the data were processed

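The submitters' processing notes name cutadapt 1.9, Bowtie2 2.5.0 and the build mm10, and no peak caller. The authors deposited 1 peak list per library in 10 narrowPeak columns. The deposited fold is the ratio of a peak to its local background, and the deposited −log10 p and −log10 adjusted p refer to the same library alone, so they were used only to rank peaks within a list, to filter them and to infer depth. The deposited coordinates are on mm10, 21 chromosomes were kept, and gene spans came from RefSeq (GRCm38.p6).

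Covered length is the number of bases under peaks in the gene span plus 2 kb on either side. It was tested with limma 3.58.1 (trend) in R 4.3.3 on log2(covered bp + 250), over all 6 libraries and the 15362 genes with a peak in at least 2, with Benjamini-Hochberg adjustment at 0.05. The fit was tested on simulated data. With 2 libraries a group, no permutation test can reach that threshold, so other counts are given beside the same share over all genes (background). Named are the 6 members with the smallest p in each comparison, core subunits of complex I, the 3 longest and 3 shortest covered lengths, members without peaks and restricted isoforms; other names are stated as chosen after their values were seen, as were the width of the lead peak and its split from other peaks. The values of 1 member are not reported here, although it stays in the counts and medians. Members and lists were chosen with earlier results of these data known. Promoters were read for 75 of 92 members. Tables were handled in Python 3.11.15 with pandas 2.3.3 and numpy 2.4.6. Alternatives covered the pseudocount, the filter, the peak threshold, equal list lengths, quantile normalization, 4 windows, the replicate number and each library left out.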

Additional observations from a re-analysis of the deposited data

How the results depend on the processing

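The members with a peak in all 6 libraries numbered 86, and between 86 and 87 with a library left out. limma called 0 genes in the 3 comparisons under the main settings, and also with each library left out. Without the filter on low coverage it called 25 genes in FK866 against Control, 19 in FK866 plus succinate against FK866 and 45 in FK866 plus succinate against Control, and with deposited peaks of an adjusted p under 0.05 it called 1 in the second and 32 in the third. In the 2-kb window around the start it called 38 and 25; no member was among any of these calls except Atp5h in the last window. With quantile normalization the median of members in FK866 against Control was 0.0495. In FK866 plus succinate against Control that median was −0.0720 with the stricter peaks and −0.0651 in the 4-kb window, and narrower members numbered 10 with quantile normalization. Members wider in FK866 plus succinate than in FK866 numbered 4 with the stricter peaks, 6 with lists of equal length, 4 in the 4-kb window and 4 in the 2-kb window. Against Control they numbered 6 in each of the stricter peaks, the 4-kb window and the 2-kb window. These windows and lists leave out the weaker or more distant peaks by construction. In the 2-kb window the wider members were 5.48% of 73 against FK866 (background 8.55%) and 8.22% against Control (background 8.85%). For the other settings, quantile normalization included, no share over all genes is given here. Those counts are therefore not read as particular to members. With each library left out in turn, the medians ran from −0.0017 to 0.0175, from −0.0563 to −0.0406 and from −0.0579 to −0.0238 in the 3 comparisons. Narrower members then ran from 13 to 28, 39 to 54 and 30 to 46, and wider members from 23 to 36, 10 to 23 and 11 to 24, since fewer libraries leave less to overlap. Shares over all genes with a library left out are not given here.

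Direction turned at several named members, among them 4 of the 6 named in FK866 plus succinate against FK866. In FK866 against Control, Ndufaf1 was at 0.0590 within the gene span and Ndufa10 at −0.0116 in the 4-kb and the 2-kb window. In FK866 plus succinate against FK866, Ndufs1 was at −0.0656 in the 4-kb window and Atp5o at 0.10 within the gene span. Ndufab1 was at −0.11 with the stricter peaks, −0.11 in the 4-kb window and −0.0419 in the 2-kb window, and Ndufaf1 at −0.0418 in both windows. Against Control, Ndufs1 was at −0.0529 in the 4-kb window, and Ndufab1 at −0.10 with the stricter peaks, −0.10 in the 4-kb window and −0.0496 in the 2-kb window.

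The libraries share replicate numbers 1 and 2, and nothing in the labels says that a number marks a shared culture. Deviations of same-numbered libraries correlated at −0.01 (Control and FK866), −0.13 (Control and FK866 plus succinate) and 0.02 (FK866 and FK866 plus succinate). With the replicate number as a block, limma again called 0 genes in each comparison, and the smallest adjusted p of a member was 0.973, 0.582 and 0.601. Depth limits what can be said of weak peaks, and without read counts no interval can be set on a width.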

Other observations

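Subunits of the same complexes that are encoded in the mitochondrial genome were not part of the comparisons. The mitochondrial chromosome carried 8 and 6 peaks in Control, 7 and 8 in FK866, and 6 and 7 where succinate was added. Of the 13 protein genes on it, 7 and 5, 7 and 6, and 6 and 5 had a peak in the same order. Peaks covered 6.01 and 6.78 kb in Control, 6.32 and 6.95 kb in FK866, and 5.40 and 5.77 kb in FK866 plus succinate, and the highest deposited fold in any library was 6.36, in FK866 1. Both succinate libraries had the shortest covered length of the 6.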
